A study of Mus musculus with 13 samples.

Results

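Toll-like receptors (TLRs) sense microbial and damage-associated molecules, and 10 genes of this system were followed in single hypothalamic microglia: the receptors Tlr2, Tlr3, Tlr4, Tlr7, Tlr9 and Tlr13, the co-receptor Cd14, the receptor homologue Cd180 with its partner Ly86 (MD-1), and the adaptor Myd88. The genes were chosen by name for their place in the pathway, with earlier results of these data known. Of the 10 members, 9 were among the 17280 genes that all plates list and that the authors kept, and 6 had enough counts to be tested. Tlr9 was listed on 9 of the 13 plates.

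TLR2 and TLR4 sit in the plasma membrane, where TLR4 binds bacterial lipopolysaccharide with the help of CD14 and MD-2, while TLR3, TLR7, TLR9 and TLR13 act in endosomes on nucleic acids. CD180 has the outer part of a TLR without the inner signalling domain, needs MD-1 to reach the cell surface, and is known as a modulator of TLR4 and TLR2 signalling. MYD88 carries the signal of all TLRs except TLR3 to NF-κB. Saturated fatty acids and dietary fat are often discussed as triggers of TLR4 in brain macrophages, which is the background for asking whether receptor transcripts differ with feeding.

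The methods name the sorted cells as hypothalamic microglia, low in CD45 and positive for CD11b. They came from wild-type C57BL/6J mice on standard chow (NC) or on a high-fat diet (HFD, 60% fat) for 1 day, 3 days, 1 week, 4 weeks, 9 weeks or 16 weeks. Libraries were made by CEL-Seq2, in which each sorted cell occupies 1 well and transcripts are counted at their 3′ end by unique molecular identifiers (UMIs), so a count is not proportional to transcript length and was not divided by it. The 13 plates each mixed control wells with wells of 1 or more lengths of HFD. The labels describe the tissue as brain and give only the 3-day feeding, whereas the table of wells gives the length of HFD for each well. Wells named 7 days and wells named 1 week were merged. The well names also hold week numbers that the labels do not explain, and the reported fit does not use them. On plate 13 control wells hold 14 and 24, the 16-week wells 24 and the 1-week and 3-day wells 14. On plate 1 control wells hold 4 and 10 and the 4-week wells 4. Comparisons within these plates thus mix week numbers. The wells carry replicate identifiers, each found under 1 diet (MG_M8 and WT_M8 are different identifiers), which were not established to be single mice, and the same identifiers recur on plates 2 and 3, on plates 4 and 5 and on plates 10 to 12. The p-values and intervals measure the spread between sums, and so count the plates of 1 identifier as separate samples.

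Of 2496 wells, 1617 held at least 1500 transcripts and were kept, with a median of 2840 transcripts per cell. Cells of 1 diet, 1 identifier and 1 plate were summed where at least 5 were kept, which gave 68 sums of 22774 to 219199 transcripts: 28 for NC (19 identifiers), 6 for 1 day (6 identifiers), 6 for 3 days (4), 7 for 1 week (5), 5 for 4 weeks (3), 6 for 9 weeks (2) and 10 for 16 weeks (5). The same well barcodes recurred on all 13 plates, so cells were identified by plate and barcode. Plate 5 kept no control cells and plate 4 kept 7. At least 3 UMIs of 8 microglial markers were found in 99.8% of cells, as against 0.866% for monocyte and 1.11% for border-associated macrophage markers.

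In control microglia the transcripts of Ly86, Cd180 and Cd14 had higher medians than those of the receptors (levels are counts per 1000000 transcripts of a sum, CPM). Ly86 stood at 970.5, 2212 and 3671 (lowest, median and highest of 28 control sums) and Cd180 at 324, 633 and 953, ranges that did not overlap. Cd14 followed at 235, 395 and 631. The endosomal receptors Tlr13 (119, 185 and 290) and Tlr7 (90.3, 159 and 260) overlapped almost entirely, and so did their SDs of 44.3 and 50.0 around means of 186 and 168.

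Tlr2 had a lowest, median and highest control value of 21.9, 98.6 and 290, followed by Tlr3 (22.3, 69.5 and 181), Tlr4 (0, 62.3 and 153) and Myd88 (0, 49.8 and 141). The order among these genes of low level was within their spread, since each range overlapped the next. Tlr4 was at 0 in 4 and Myd88 in 3 of the 28 control sums. Control levels also differed between plates: the mean per plate spanned 971 to 2829 for Ly86 and 324 to 790 for Cd180, and the fit therefore has plate as a term.

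**Figure D1:**
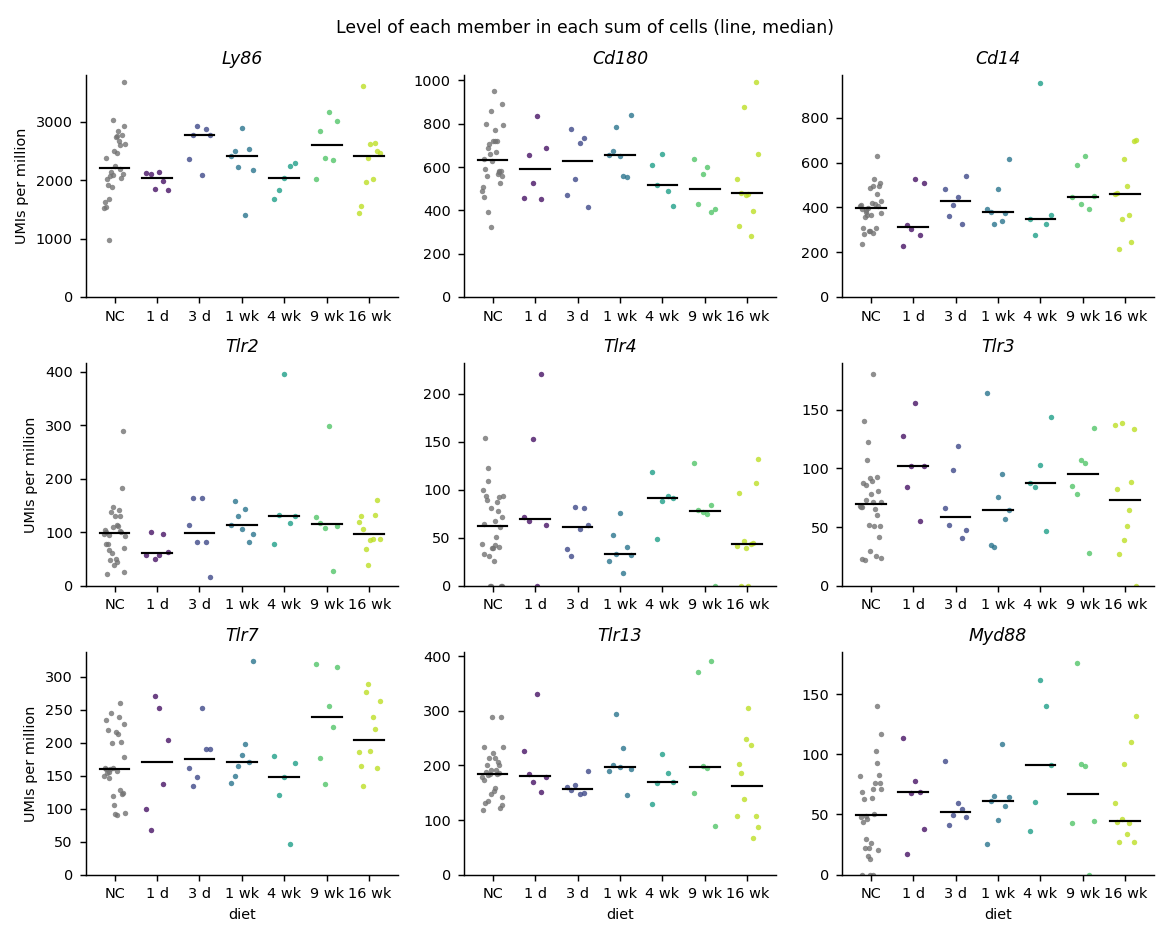
Each point is 1 sum of cells (1 diet, 1 identifier, 1 plate), the vertical axis gives CPM from 0, the horizontal axis the diet (NC, control) and the line the median. The control median falls from 2212 for Ly86 to 49.8 for Myd88, HFD sums overlap control sums for every member, and single high points stand at 956 for Cd14 and 397 for Tlr2 at 4 weeks.

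Tlr9, the receptor for unmethylated CpG DNA, was at the floor. On the 9 plates that list it, 5 of 1102 cells held 1 UMI each (0.454%, exact 95% binomial interval 0.147 to 1.06), of which 4 were control cells and 1 came from 4 weeks of HFD. The other 4 plates do not list the gene, and it was not tested.

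Whether HFD of any length shifted the members was tested by edgeR's quasi-likelihood test on the sums, with plate as a term. No member passed an adjusted p of 0.05 at any length (0 of 6 tested, where 0% of all 2336 genes passed at each length and over all lengths together). At an unadjusted p under 0.05, 1 of the 6 members was below the threshold at 9 weeks, where 6.34% of all genes were, and none was at 1 day (4.88% of genes), 3 days (4.67%), 1 week (4.2%), 4 weeks (4.11%), 16 weeks (4.75%) or in the test over any length (5.69%). The median log2 fold change of the 6 members was 0.02 at 1 day, -0.08 at 3 days, 0.03 at 1 week, -0.07 at 4 weeks, 0.25 at 9 weeks and 0.01 at 16 weeks, as against medians from -0.01 to 0.01 over all genes. A p that misses the threshold does not show that levels were alike. The intervals given here state what sizes of difference the data leave possible where sums are taken as separate samples.

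**Figure D2:**
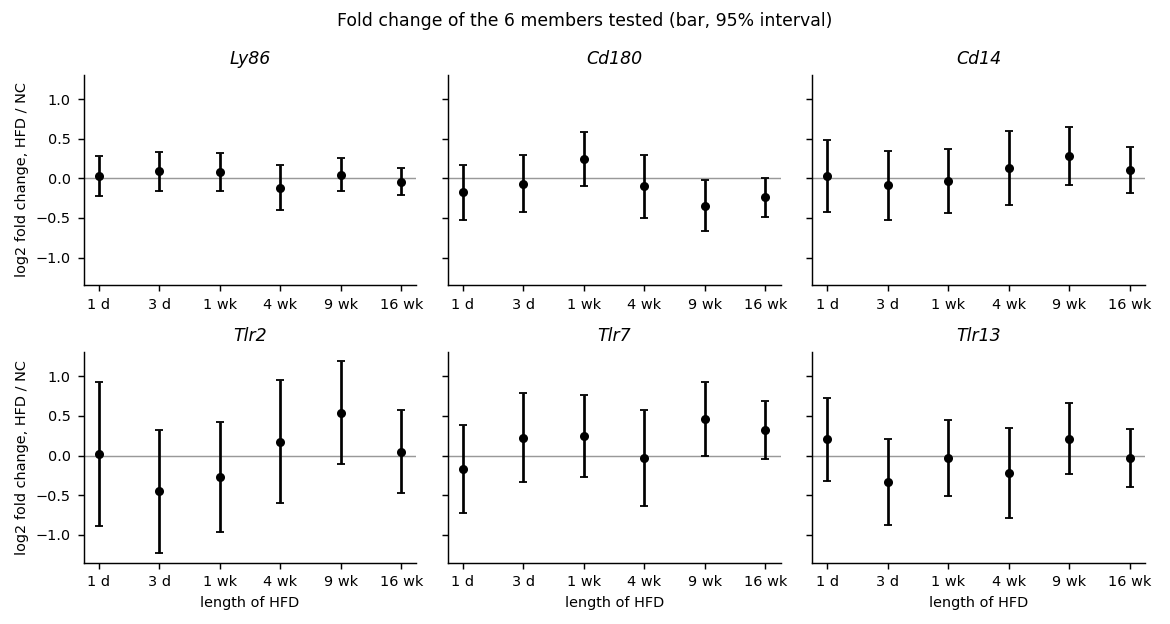
Points are log2 fold changes of HFD over NC for the 6 members tested, by length of HFD (horizontal axis), from the fit with plate as a term, and bars are 95% intervals. Of the 36 intervals, that of Cd180 at 9 weeks (-0.66 to -0.02) lies below 0, and at each length the interval of Ly86 is the narrowest.

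Cd180 had the smallest p of the members. Its level over 9-week sums was 392, 499 and 639 (lowest, median and highest of 6), as against 324, 633 and 953 in NC, so the ranges overlapped across plates. The log2 fold change was -0.34 ± 0.16 (SE; edgeR p = 0.0332, adjusted p = 0.738). Within plates the 9-week mean was below the control mean on 3 of 3 plates, at 535 against 790 on plate 10, 583 against 720 on plate 11 and 398 against 563 on plate 12. A lower mean on all 3 plates was also found for 16.1% of the genes tested.

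These 3 plates held the same identifiers, MG_M1 to MG_M4 in NC and MG_M5 to MG_M8 in HFD, and so are repeated samples of them rather than independent ones. Pooled over the plates, Cd180 was at 691, 636, 698 and 797 in the 4 control identifiers and at 547 and 493 in the 2 identifiers of 9 weeks. The groups did not overlap, as was true in the same direction of 7.88% of all genes tested. At 16 weeks the identifiers MG_M5 and MG_M6 had 419 and 570, again below all 4 controls (7.45% of genes). Counted in either direction, 2 of the 6 tested members, Cd180 and Tlr7, did not overlap at 9 weeks (14.6% of genes) and at 16 weeks (14.9%), and both lengths were set against the same 4 control identifiers. Of the 3 rare members that were not tested, Tlr4 (27.2 and 31.3 CPM, below controls of 44.5 to 62.8) and Myd88 (61.1 and 62.5 CPM, above controls of 45.7 to 59.9) were also free of overlap at 16 weeks, and none was at 9 weeks. These rest on few UMIs, 4 and 5 of Tlr4 against 8 to 11, and 9 and 10 of Myd88 against 8 to 13. The shares of genes given here leave out such rare genes, for which none was counted. On plates 6 and 8, with 6 identifiers of NC and 6 of 1 day, 0 of the 6 tested members were free of overlap (0.385% of genes).

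Plates 2 and 3 also hold the same identifiers, L3 in NC and L4 at 16 weeks. There Cd180 was at 544 against 510 on plate 2 and 328 against 461 on plate 3, and at 425 against 485 when both plates were pooled. On plate 13, whose controls mix week numbers, it was at 825 against 706 (control sums from 558 to 891). The log2 fold change of Cd180 over all 16-week sums was -0.24 ± 0.12 (SE; edgeR p = 0.0555, adjusted p = 0.977). It was -0.06 without the 16-week identifier MG_M5 (edgeR p = 0.679) and -0.35 without the 16-week identifier MG_M9 (edgeR p = 0.00597, adjusted p = 0.785), and the 9-week value was -0.23 without the 9-week identifier MG_M8 (edgeR p = 0.284). The same gene had higher means at 1 week on 4 of 4 plates (666 against 637, 559 against 394, 552 against 324 and 841 against 706), where 8.3% of genes did so, with a log2 fold change of 0.25 ± 0.17 (SE; edgeR p = 0.144, adjusted p = 0.999). With 1 identifier left out, it lay between 0.14 (the 1-week identifier WT_M4 of plate 9) and 0.34 (the 3-day identifier MG_M24; edgeR p = 0.0424, adjusted p = 0.999). The test of any difference among lengths gave p = 0.051 and an adjusted p of 0.822 for Cd180 (edgeR).

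Ly86, whose product holds CD180 at the surface, was not called at any length. Its log2 fold changes lay between -0.12 (4 weeks) and 0.09 (3 days). With 1 identifier left out, the 4-week value lay between -0.22 (without L2 of 4 weeks) and -0.06 (without MG_M20 of 4 weeks) and the 3-day value between 0.04 (without L2 of 4 weeks) and 0.15 (without the control MG_M12), and at 9 weeks it was 0.05 with a 95% interval of -0.16 to 0.25. With 11059 UMIs in the sums it was the most deeply counted member. Its 95% interval at 16 weeks was 0.863-fold to 1.09-fold of control. That interval takes 10 sums of 5 identifiers as separate samples, so it may be too narrow for the spread between identifiers. Across sums, with each plate centred, Ly86 and Cd180 had a Pearson r of 0.05 over 68 sums, which share plates and identifiers.

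**Figure D3:**
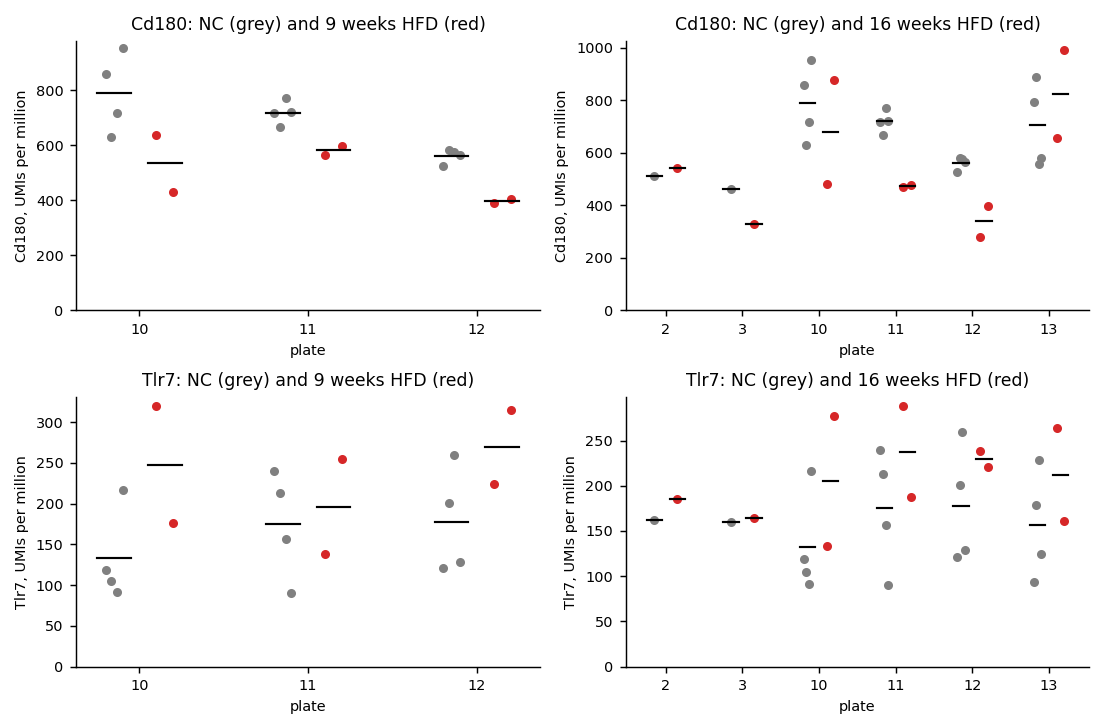
Cd180 (top) and Tlr7 (bottom) in CPM, from 0, for each sum of NC (grey) and of HFD (red) at 9 weeks (left) or 16 weeks (right) by plate, with plate means as lines. Cd180 means are lower in HFD on plates 10 to 12 at both lengths but not on plates 2 and 13, and Tlr7 means are higher in HFD on each plate shown.

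Cd14, the co-receptor that hands lipopolysaccharide to TLR4, was at 392, 448 and 630 in the 6 sums of 9 weeks and at 214, 462 and 703 in the 10 sums of 16 weeks, both overlapping the control range. Its log2 fold change was 0.28 at 9 weeks (95% interval -0.09 to 0.65; edgeR p = 0.131, adjusted p = 0.855) and 0.10 at 16 weeks (-0.19 to 0.40). The 16-week value was 0.05 without the 16-week identifier MG_M9 and 0.22 without the 16-week identifier MG_M6. Without the 9-week identifier MG_M8 the 9-week value was 0.10, and without MG_M7 it was 0.44 (edgeR p = 0.0578, adjusted p = 0.803). At 1 day, 3 days, 1 week and 4 weeks it lay between -0.09 and 0.13. The 4-week value of 0.13 became -0.17 without the 2 cells high in Tlr2 described with that gene, and ranged from -0.31 to 0.36 with 1 identifier left out.

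Tlr2, the receptor for bacterial lipoproteins that pairs with TLR1 or TLR6, had its largest log2 fold change at 9 weeks, 0.54 (95% interval -0.11 to 1.19; edgeR p = 0.0989, adjusted p = 0.818), and its lowest at 3 days, -0.45 (-1.23 to 0.33). The 3-day value was -0.78 without the 3-day identifier MG_M24 and -0.20 without the 3-day identifier MG_M18. The 9-week value was 0.01 without identifier MG_M8 and 0.90 without MG_M7 (edgeR p = 0.0186, adjusted p = 0.749). Without the 2 cells of the series that held 10 or more Tlr2 UMIs it was 0.16 (edgeR p = 0.622), and the 4-week value changed from 0.17 to -0.29.

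Those 2 cells stood far from the rest. One, from 4 weeks of HFD (identifier MG_M21, plate 4), held 20 UMIs of Tlr2 and 36 of Cd14 among 7325 UMIs, with 4 of Ly86, 2 of Cd180, 1 of Tlr4 and 1 of Tlr7. It had 27 UMIs of Cx3cr1 and 15 of Csf1r, which microglia express, but 2 of P2ry12 and 1 of Tmem119, and it held 3 of the macrophage marker Ms4a7 and none of Mrc1, Ccr2 or S100a9. The other, from 9 weeks (identifier MG_M8, plate 11), held 12 UMIs of Tlr2 together with 11 of Tlr1, the partner of TLR2, with 5 of Cd14, 11 of Ly86, 9 of Tmem119 and 7 of P2ry12 among 4629 UMIs. No further cell had more than 5 Tlr2 UMIs or 9 Cd14 UMIs. Neither cell was singled out by a rule fixed in advance, and they were named after their values were seen.

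**Figure D4:**
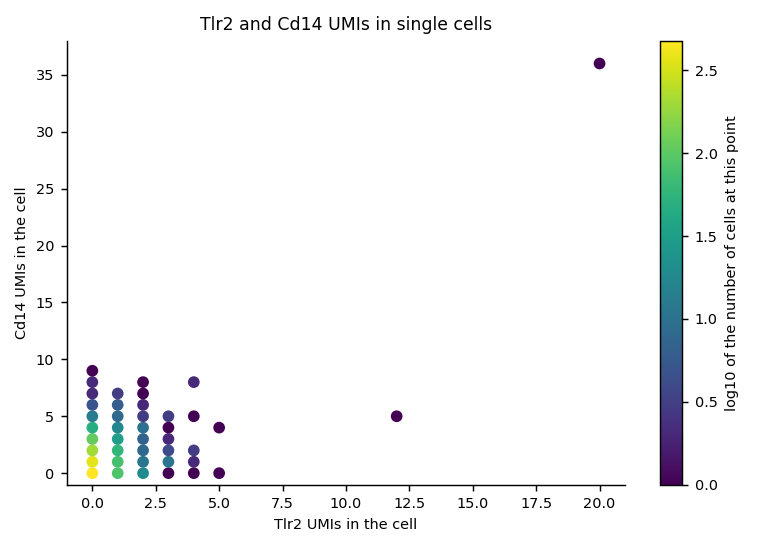
Each point is a combination of Tlr2 UMIs (horizontal axis) and Cd14 UMIs (vertical axis) in a cell, before thinning, and colour gives the log10 of the number of cells at that combination, over all 1617 cells. The cell with 20 Tlr2 and 36 Cd14 UMIs and the cell with 12 and 5 lie apart from the others.

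Tlr4 had 343 UMIs in all sums, too few to pass the filter for testing. Pooled over sums it was at 66.3 CPM in NC (95% Poisson interval 56.0 to 78.0), 99.6 (70.8 to 136) at 1 day, 55.6 (36.3 to 81.5) at 3 days, 37.2 (23.3 to 56.4) at 1 week, 94.7 (68.8 to 127) at 4 weeks, 74.1 (47.0 to 111) at 9 weeks and 58.0 (41.9 to 78.1) at 16 weeks. These intervals, like all such intervals here, cover counting error only. The lowest level, at 1 week, and the highest, at 1 day, came from different plates, and control means of Tlr4 spanned 26.0 to 112 between plates. Within plates the Tlr4 mean was lower than control on 3 of 4 plates at 1 week and on 4 of 6 at 16 weeks, and higher on 1 of 2 at 1 day, 2 of 2 at 3 days (28.9% of genes), 2 of 2 at 4 weeks (25.4%) and 2 of 3 at 9 weeks. Fitted without the filter, which is a different setting, Tlr4 had a log2 fold change of -0.76 ± 0.46 at 1 week (SE; edgeR p = 0.0969, adjusted p = 0.943). Ly96, which encodes the TLR4 partner MD-2, was rarer, with a control median of 40.5 CPM and a range of 0 to 143, and was not tested either.

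Among the endosomal receptors, Tlr7, which binds single-stranded RNA, had HFD means above control on every plate with 9 or 16 weeks. Its 9-week sums were at 138, 239 and 319 CPM (lowest, median and highest) and its 16-week sums at 133, 204 and 288, as against 90.3, 159 and 260 in NC. Tlr7 had a log2 fold change of 0.46 ± 0.23 at 9 weeks (SE; edgeR p = 0.0517, adjusted p = 0.79) and of 0.32 ± 0.18 at 16 weeks (SE; edgeR p = 0.0821, adjusted p = 0.977). The 95% intervals were -0.01 to 0.92 and -0.05 to 0.69, and neither passed the test.

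Within plates the Tlr7 mean at 16 weeks was above control on 6 of 6 plates, from 164 against 160 on plate 3 to 205 against 133 on plate 10, as was true of 1.28% of genes tested. Since plates 2 and 3 share their identifiers, as do plates 10 to 12, these 6 plates are 3 sets of identifiers, and Tlr7 was at 174 in L4 against 161 in L3 when plates 2 and 3 were pooled. At 9 weeks it was higher on 3 of 3 plates (12.4% of genes). On plates 10 to 12, the control identifiers MG_M1 to MG_M4 stood at 183, 173, 160 and 161 when pooled, the 9-week identifiers at 216 and 247 and the 16-week identifiers at 238 and 224. The HFD values were above all 4 controls at both lengths, as were those of 6.72% of genes at 9 weeks and 7.49% at 16 weeks, and both comparisons used the same control identifiers. With 2 identifiers against 4, an exact permutation test could not pass a threshold of 0.05, and none was made. At 1 day, 3 days, 1 week and 4 weeks the log2 fold change of Tlr7 was -0.17, 0.23, 0.25 and -0.03. With 1 identifier left out, the 1-day value lay between -0.40 (without WT_M8 of 1 day) and -0.04 (without WT_M6 of 1 day). The 3-day value lay between 0.13 (without L2 of 4 weeks) and 0.34 (without the control MG_M26), and the 1-week value between 0.14 (without MG_M13 of 1 week) and 0.35 (without the control MG_M26).

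Tlr13, the mouse receptor for a bacterial ribosomal RNA sequence, had log2 fold changes from -0.34 (3 days, 95% interval -0.88 to 0.20) to 0.21 (9 weeks, -0.23 to 0.66). Leaving out 1 identifier, the 3-day value lay between -0.43 and -0.27 and the 9-week value between 0.14 and 0.30. At 16 weeks the log2 fold change of Tlr13 was -0.03 (-0.40 to 0.33), with sums from 66.3 to 306 CPM on both sides of the control median.

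Tlr3, which binds double-stranded RNA and signals through TRIF instead of MYD88, was too rare to be tested, with 408 UMIs in the sums. Its pooled level was 69.1 CPM (58.5 to 80.9) in NC, 102 (73.0 to 139) at 1 day, 68.5 (46.8 to 96.7) at 3 days, 77.9 (57.0 to 104) at 1 week, 94.7 (68.8 to 127) at 4 weeks, 93.5 (62.6 to 134) at 9 weeks and 87.6 (67.6 to 112) at 16 weeks. The counting interval of control overlapped that of every length. Within plates the Tlr3 mean was higher than control on 1 of 2 plates at 1 day, 4 of 4 at 1 week (8.3% of genes), 2 of 2 at 4 weeks (25.4%), 3 of 3 at 9 weeks (12.4%) and 5 of 6 at 16 weeks (10.2% of genes on 5 or more), and it was lower on 2 of 2 at 3 days (21.8%).

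Myd88, the adaptor that most of these receptors share, was the rarest member counted on all plates, with 313 UMIs. Its pooled level was 53.6 CPM (44.4 to 64.2) in NC and between 56.6 (40.8 to 76.5, 16 weeks) and 80.6 (52.1 to 119, 9 weeks) in HFD. Within plates its mean was higher than control on 2 of 2 plates at 1 day (26.3% of genes), 1 of 2 at 3 days, 3 of 4 at 1 week, 1 of 2 at 4 weeks, 2 of 3 at 9 weeks and 3 of 6 at 16 weeks. The only control sum of plate 4 held 0 Myd88 UMIs in 7 cells. Plate 4 thus could not count as lower at 3 days, 1 week or 4 weeks. Without the filter, the smallest p of Tlr3, Tlr4 and Myd88 among the 6 lengths was the value of 0.0969 given for Tlr4.

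In single cells, the share with at least 1 UMI was taken after each cell had been thinned at random to 1500 transcripts, so that depth was equal. Over all 1617 cells it was 90.4% for Ly86, 53.5% for Cd180, 42.7% for Cd14, 21.9% for Tlr7, 20.4% for Tlr13, 14.0% for Tlr2, 12.0% for Tlr3, 9.52% for Tlr4 and 8.35% for Myd88. Without thinning these shares were higher, at 96.5% for Ly86, 38.3% for Tlr7 and 17.5% for Tlr4, so most cells without a UMI of a receptor cannot be told from cells that express it at a low level. No cell type lacking these genes was sorted, so the share that free RNA in a well could give was not measured.

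By diet, Cd180 was found in 54.7% of control cells (exact 95% binomial interval 51.0 to 58.4), in 47.6% at 9 weeks (36.4 to 58.9) and in 46.3% at 16 weeks (39.8 to 53.0). Cd14 was found in 41.1% of control cells (37.5 to 44.8) and in 56.1% at 9 weeks (44.7 to 67.0). Tlr7 was found in 20.6% of control cells (17.7 to 23.8), in 25.6% at 9 weeks (16.6 to 36.4) and in 24.7% at 16 weeks (19.3 to 30.8).

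Within plates, the share of cells with Cd180 differed from control by -16.5 percentage points at 9 weeks (lower on 2 of 3 plates), -11.3 at 16 weeks (lower on 4 of 6) and 10.1 at 1 week (higher on 3 of 4), where the SD among control sums was 12.3. Cd14 differed by 15.9 points at 9 weeks (higher on 3 of 3 plates; SD 12.2). The largest difference was that of Cd180 at 4 weeks, 20.8 points on 2 plates, while the log2 fold change of its level over all 4-week sums was -0.10. On plate 1 the share was 53.9% against 45.2%. On plate 4 it was 80.0% and 71.4% against 42.9%, where the control was 1 sum of 7 cells. Tlr7 differed by 3.36 points at 9 weeks and 4.30 at 16 weeks, with an SD of 11.5. The sizes depended on depth. With cells thinned to 1000 transcripts or not thinned, Cd180 differed by -7.82 and -11.2 points at 9 weeks and -2.78 and -8.62 at 16 weeks. Cd14 at 9 weeks then differed by 9.67 and 10.3 points, while Tlr7 at 16 weeks differed by more, 10.2 and 12.1. These shares were not tested.

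**Figure D5:**
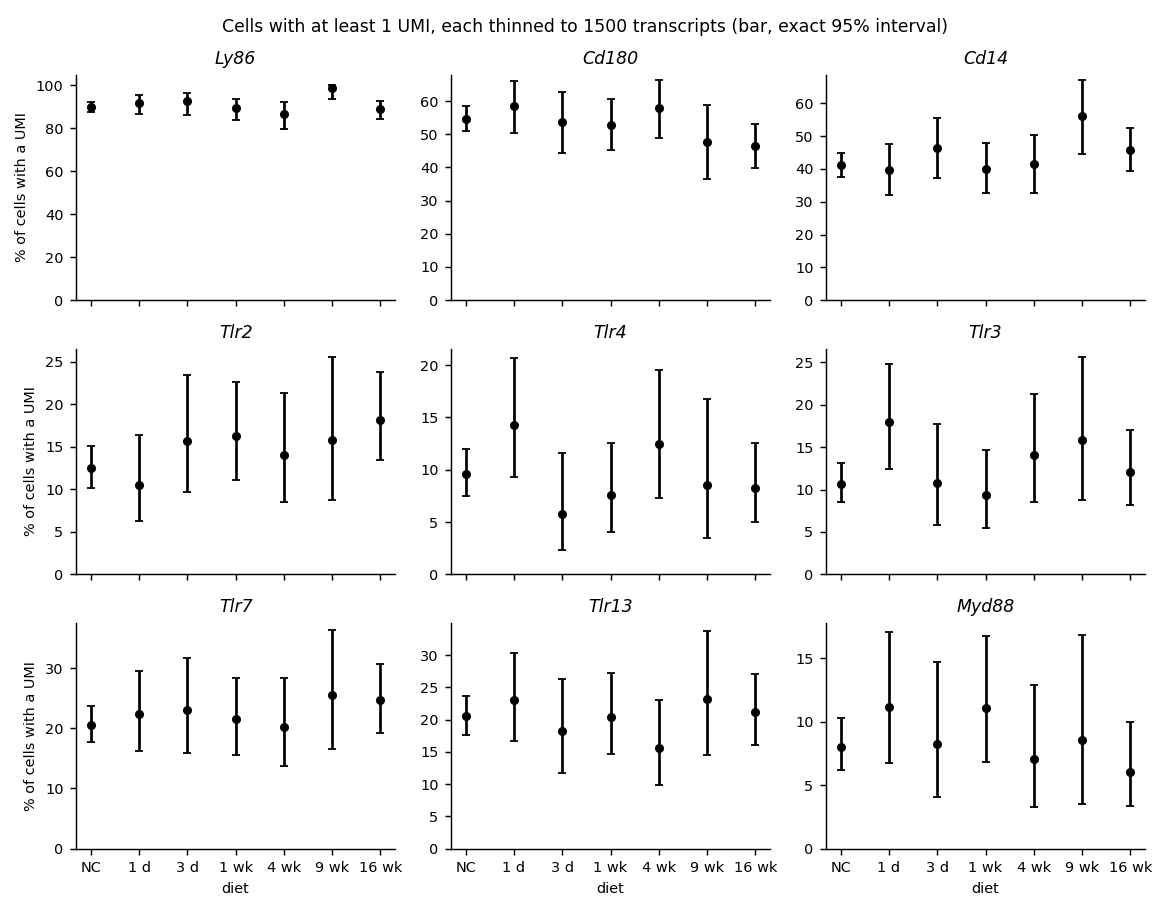
Percent of cells with at least 1 UMI of each member (vertical axis) by diet (horizontal axis), after each cell was thinned to 1500 transcripts, and bars are exact 95% binomial intervals, which treat cells as independent and cover counting error only. Ly86 lies between 86.7% and 98.8% and Myd88 between 6.06% and 11.2%. The interval of control overlaps that of every length for all members except Ly86 at 9 weeks. There the control interval ends at 92.0% and the 9-week interval starts at 93.4%. However, control cells come from many plates and 9-week cells from plates 10 to 12 alone. Within those plates the share of Ly86 differed by 2.71 points (higher on 2 of 3; SD 6.92 among control sums). With cells thinned to 1000 transcripts that difference was -2.66 points.

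Each receptor was found in a minority of the thinned cells, from 9.52% for Tlr4 to 21.9% for Tlr7. Without thinning these 2 shares were 17.5% and 38.3%. Low shares alone make cells with 2 or more receptors less common, and the numbers per cell given next were not set against those shares. Of Tlr2, Tlr3, Tlr4, Tlr7 and Tlr13, 41.8% of the thinned cells held none, 41.2% held 1, 14.5% held 2, 2.41% held 3, 0.124% held 4 and 0% held all 5. Co-detection was set against the number given by the 2 shares within each plate. Tlr2 and Cd14 were found together in 116 cells where 97.7 were given by the shares (ratio 1.19), Tlr3 and Tlr7 in 53 where 42.9 were (1.24), and Tlr4 and Myd88 in 19 where 13.1 were (1.45). Ly86 and Cd180, whose products form a complex, were found together in 789 cells where 784 were given (1.01). Of the 36 pairs, 17 had a ratio below 1, the lowest being Tlr3 with Myd88 (9 cells, 0.559), followed by Tlr4 with Tlr7 (25 cells, 0.746), Tlr2 with Tlr7 (39 cells, 0.784) and Tlr2 with Myd88 (15 cells, 0.790). These ratios are descriptions of counts of few UMIs per cell and were not tested.

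Most counts were spread over many cells. Before thinning, the 10 cells with the most UMIs gave 3.11% of all Ly86 UMIs, 3.62% for Cd180, 5.59% for Tlr7 and 11.9% for Tlr2, the last including the 2 cells described. Among thinned control cells the variance divided by the mean within plates, which is 1 for counting error alone, was 1.01 for Myd88, 1.05 for Tlr3, 1.16 for Tlr2, 1.29 for Cd180 and 1.41 for Ly86.

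Other genes of the pathway were taken from a list of 53, of which 50 were in the table and 19 could be tested. Among these 19, 0 passed an adjusted p of 0.05 in either direction at any length, with a median log2 fold change between -0.02 (1 day) and 0.06 (9 weeks). Of the genes for partners and trafficking of the receptors, some were abundant in control cells: the chaperone Unc93b1 had a median of 863 CPM, the folding partner Hsp90b1 876, and the proteases that cleave the receptors, Ctss, Lgmn, Ctsb and Ctsl, 6295, 2380, 1834 and 605. The chaperone Cnpy3 was lower, with a median of 110 CPM, and Lbp and Cd36 had medians of 0.

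In the test of any difference among lengths, the 3 smallest p of the list were those of Nfkbia, Ctsl and Irf5. Nfkbia, the inhibitor and target gene of NF-κB, had p = 0.026 and an adjusted p of 0.822 in edgeR's test of any difference, with log2 fold changes of -0.80 at 3 days (95% interval -1.64 to 0.03) and 0.63 at 4 weeks (-0.14 to 1.41). Ctsl was at 0.29 at 9 weeks (0.00 to 0.59; edgeR p = 0.0479, adjusted p = 0.781) and Irf5, a transcription factor below TLR7 and MYD88, lay between -0.30 at 16 weeks (-0.67 to 0.07) and 0.35 at 1 week (-0.16 to 0.86). At single lengths smaller p than that of Ctsl were found for Ctsb at 9 weeks (log2 fold change 0.27, edgeR p = 0.0214, adjusted p = 0.685) and Unc93b1 at 1 day (0.30, edgeR p = 0.0275, adjusted p = 0.957), which were named after their values were seen. Of the other receptors, Tlr1 had a control median of 89.0 CPM and no length passed the test. Tlr12 stood at 65.3 and Tlr6 at 45.3, Tlr5 and Tlr11 had control medians of 0, and Tlr8 was seen as 2 UMIs in 680 cells of the 6 plates that list it. Of the 9 inflammatory target genes in the table, 5 had control medians of 0, Tnf, Il1b and Ccl2 among them, and the other 4 had medians of 5.44 to 40.5 CPM.

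Cells with markers of other types were unevenly spread over diets. At least 3 UMIs of another type were found in 50 cells, which were 1.80% of NC, 0.621% of 1 day, 8.26% of 3 days, 4.65% of 1 week, 7.81% of 4 weeks, 4.88% of 9 weeks and 1.73% of 16 weeks cells. Of 4 neutrophil markers only S100a9 was counted, since not all plates list the others. On plate 5, S100a8 was seen in 17 of 79 cells, Ngp in 13 and Camp in 7. Cells with neutrophil RNA there may thus be missing from the 50, and whether that RNA belongs to the cells was not tested. In the 27 cells with monocyte, border-associated macrophage or neutrophil markers, Tlr2 was at 300.4 CPM (95% Poisson interval 215 to 409) and Ly86 at 1382 (1189 to 1596), as against 101 (92.5 to 110) and 2152 (2111 to 2193) in the 1567 cells with under 3 UMIs of every other type. Of the 40 Tlr2 UMIs in the 27 cells, 20 came from the cell on plate 4, and without it the level was 159 CPM (97.1 to 245). Without all 50 cells the log2 fold change of Cd180 at 9 weeks was -0.35 (edgeR p = 0.0348) and that of Tlr7 was 0.43 (edgeR p = 0.0749), both close to the values with them. At 4 weeks the values of Tlr2 and Cd14 changed sign without these cells, from 0.17 to -0.54 and from 0.13 to -0.10, and at 9 weeks Cd14 was 0.35 (edgeR p = 0.0373, adjusted p = 0.738).

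The likeness of other genes to the members tested was low. Over the 68 sums, with plates centred, the 3 genes of 2335 with the highest Pearson r were Tmed7, Psme2 and Pde3b for Tlr7, Arpc1b, Jun and Tsc22d4 for Cd180, Arhgdia, Stk10 and Tnrc6b for Ly86, Dcaf8, Rsf1 and Htra2 for Cd14, and Mgat4a, Slc38a9 and Slc36a1 for Tlr13. Tmed7 had the highest r, 0.518. Between members r lay from -0.22 (Ly86 and Tlr13) to 0.26 (Cd14 and Tlr7). The sums share plates, identifiers and library sizes, and these values are descriptions.

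On the mouse genome GRCm38 (mm10), GENCODE places Tlr2 at chr3:83836272-83841767 (minus strand), Tlr4 at chr4:66827584-66930284 (plus), Cd180 at chr13:102693558-102739629 (plus) and Ly86 at chr13:37345208-37419036 (plus). Tlr7 and Tlr13 are both on the X chromosome, at chrX:167304929-167330558 (minus) and chrX:106143204-106160493 (plus). Tlr3 is at chr8:45395665-45411080 (minus), Tlr9 at chr9:106222598-106226883 (plus), Myd88 at chr9:119335934-119341411 (minus) and Cd14 at chr18:36725067-36726798 (minus). Exons of Cd180, Tlr3 and Myd88 overlap exons of Mast4, Gm45542 and Acaa1a on the opposite strand. Whether the counting used strand is not given in the sources used here, so for these 3 genes reads of the partner cannot be told apart where the exons overlap.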

How the data were processed

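The authors sorted single cells into wells, trimmed barcodes with Cutadapt, mapped reads to mm10 with STAR and counted them with featureCounts in snakePipes. The deposited plate tables hold estimated counts, that is UMIs per gene and well corrected for chance repeats, with no normalization, so values of very abundant genes are less exact. The genes are those listed on all plates and kept by the authors (17280, without 447 removed, which held 23.1% of transcripts). Another 843 columns of per-cell values in the filtered table were not used. Cells under 1500 transcripts were left out, no doublet caller was run on singly sorted cells, and sums were rounded to whole numbers. edgeR 4.0.16 in R 4.3.3 fitted plate and length to 68 sums (quasi-likelihood, TMM, filterByExpr, 2336 genes, 49 residual degrees of freedom, Benjamini-Hochberg). An SE is the log2 fold change divided by the square root of F. limma 3.58.1, DESeq2 1.42.0, scipy 1.17.1, numpy 2.4.6 and pandas 2.3.3 were also used, and the fit was tested on simulated data. All 10 members were named in full; of the pathway list, called genes or else the 3 smallest p, Ly96 and other TLR genes. The members and lists were chosen with earlier results of these data known. The genes most like Tlr2 and 1 marker count of a single cell are not reported here.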

Additional observations from a re-analysis of the deposited data

Results flagged for a closer look

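Among groups of 4 to 10 sums of 1 diet, 108 sets of values (CPM or share of cells, per member and length) were searched for a sum that stood apart from the others by Dixon's criterion, and 9 were found, where chance gives about 5% of sets. For Cd14 at 4 weeks the sum of identifier MG_M21 on plate 4 was at 956 CPM, with the next of 5 at 366, and for Tlr2 the same sum was at 397 with the next at 133. That sum holds the cell with 36 Cd14 and 20 Tlr2 UMIs. For Tlr2 at 9 weeks the sum of MG_M8 on plate 11 was at 299.9 CPM with the next of 6 at 128, and it holds the cell with 12 Tlr2 UMIs. Tlr7 at 1 week was at 323 CPM in MG_M13 on plate 13, with the next of 7 at 198. Myd88 at 3 days was at 94.6 CPM in MG_M25 on plate 4, with the next of 6 at 59.4.

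Of the shares of cells with a UMI, Ly86 at 1 day was at 95.8% in WT_M6 on plate 6 with the next at 92.3%, and at 9 weeks at 92.9% in MG_M7 on plate 12 with the other 5 sums at 100%. Tlr3 at 3 days was at 27.8% in MG_M24 on plate 5 with the next at 12.5%, and at 4 weeks at 0% in MG_M20 on plate 5, of 10 cells, with the next at 13.3%.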

How the results depend on the processing

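No paired analysis was possible because the identifiers of the wells do not recur across diets and the numbers in the labels name plates. The reported fit already holds plate as a block, and the values without it are given here. No member passed an adjusted p of 0.05 in edgeR, in any of the 14 other settings or when any of the 44 identifiers was left out (0 calls each). The log2 fold change of Cd180 at 9 weeks lay between -0.44 and -0.23 when 1 identifier was left out, and that of Tlr7 between 0.42 and 0.50. At 16 weeks Cd180 lay between -0.35 and -0.06 and Tlr7 between 0.29 and 0.42. Of the 491 member values from other settings, 423 kept their sign and 68 reversed it, and of the 1584 with 1 identifier left out 1534 kept it and 50 reversed it. The alternatives with the week number of the well names, whose meaning the labels do not give, as the block, without plates 4 and 5 and without 2 cells were chosen after seeing the data. Scaling without TMM shifted the median log2 fold change of all genes by 0.154 at 3 days, 0.156 at 1 week and 0.118 at 4 weeks.

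The number of genes called, 0 in the reported fit at each length and over any length, became with DESeq2 1 for 9 weeks. It was without the filter 6 for 3 days, 6 for 1 week, 12 for 4 weeks, 4 for 9 weeks, 4 for 16 weeks, 30 for any length. It was without the plate term 3 for 1 day, 29 for 3 days, 16 for 1 week, 23 for 4 weeks, 1 for 16 weeks, 59 for any length. It was with sums of 1 length on 1 plate 3 for 1 week, 8 for 4 weeks, 1 for 16 weeks, 7 for any length. It was with limma voom and the identifier as a random effect 1 for 1 week, 1 for 16 weeks, 4 for any length. It was on the plates of that length and control alone 3 for 1 week, 1 for 9 weeks. It was at 3000 transcripts per cell 1 for 1 week, 1 for 4 weeks, 1 for 16 weeks, 5 for any length. It was with library sizes over all genes and no TMM 3 for 4 weeks. It was without plates 4 and 5 1 for 3 days, 9 for 1 week, 2 for 4 weeks, 2 for 16 weeks, 13 for any length. With 1 identifier left out it lay between 0 and 1 for 1 week and 16 weeks, between 0 and 4 for 4 weeks and between 0 and 6 for any length, and it was 0 for 1 day, 3 days and 9 weeks. The cause of these calls was not tested, and none was a member. The largest within-plate difference in the share of cells was 20.8 points as reported and 22.7, 24.0 and 27.6 points when cells were thinned to 1000, not thinned, or thinned to 3000 transcripts with 911 shallower cells left out, and it was found for Cd14 at 4 weeks, Tlr7 at 3 days and Tlr13 at 4 weeks. Of 162 such shares under other depths, 35 moved by more than 1 SD of control sums, where the depth and, at 3000 transcripts, the set of cells changed together.

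The member values that changed sign were all uncalled and the cause was not tested. Without the filter, the values of opposite sign were at 3 days Cd14 0.15, Cd180 0.15, and at 1 week Cd14 0.075, Tlr13 0.079, and at 4 weeks Tlr7 0.038, and at 9 weeks Ly86 -0.0068, and at 16 weeks Tlr2 -0.00088. Without the plate term, the values of opposite sign were at 1 day Tlr2 -0.42, Cd14 -0.16, Ly86 -0.19, Tlr7 0.0026, and at 3 days Tlr2 0.22, Cd14 0.16, Cd180 0.0073, and at 1 week Tlr2 0.36, Cd14 0.070, Tlr13 0.17, and at 16 weeks Ly86 0.0071. With sums of 1 length on 1 plate, the values of opposite sign were at 3 days Cd180 0.0062, and at 1 week Tlr13 0.0024. With limma voom and the identifier as a random effect, the values of opposite sign were at 1 day Cd14 -0.0035, and at 4 weeks Cd14 -0.019, Tlr7 0.012. On the plates of that length and control alone, the values of opposite sign were at 3 days Cd14 0.12, and at 1 week Cd14 0.19, and at 4 weeks Cd180 0.15. At 1000 transcripts per cell, the values of opposite sign were at 1 day Tlr2 -0.22, and at 1 week Ly86 -0.020, Tlr13 0.0033. At 3000 transcripts per cell, the values of opposite sign were at 1 day Cd14 -0.34, and at 3 days Cd14 0.21, Cd180 0.14, and at 1 week Cd14 0.27, and at 4 weeks Cd180 0.022, and at 9 weeks Ly86 -0.00090, and at 16 weeks Tlr2 -0.14, Cd14 -0.032, Tlr13 0.047. Without cells of other types, the values of opposite sign were at 1 day Tlr2 -0.050, Cd14 -0.0042, and at 3 days Cd14 0.013, and at 1 week Cd14 0.010, and at 4 weeks Tlr2 -0.54, Cd14 -0.10, Tlr7 0.0090. With library sizes over all genes and no TMM, the values of opposite sign were at 3 days Cd14 0.074, Cd180 0.075, and at 1 week Cd14 0.12, Tlr13 0.13, and at 4 weeks Cd180 0.015, Ly86 0.0026, Tlr7 0.082, and at 9 weeks Ly86 -0.00018. With plate and week number as the block, the values of opposite sign were at 3 days Cd180 0.28, and at 1 week Cd14 0.011, and at 4 weeks Cd180 0.14, and at 16 weeks Tlr13 0.0040. Without plates 4 and 5, the values of opposite sign were at 3 days Tlr13 0.010, and at 1 week Cd14 0.078, Tlr13 0.0078, and at 4 weeks Tlr2 -0.31, Cd14 -0.20, Cd180 0.33, Ly86 0.15, Tlr7 0.27. Without the 2 cells high in Tlr2, the values of opposite sign were at 1 week Cd14 0.016, and at 4 weeks Tlr2 -0.29, Cd14 -0.17. With 1 identifier left out, the values that changed sign ranged at 1 day Tlr2 from -0.13 to 0.32, Cd14 from -0.066 to 0.15, Ly86 from -0.010 to 0.067, and at 3 days Cd14 from -0.21 to 0.074, Cd180 from -0.27 to 0.15, and at 1 week Cd14 from -0.14 to 0.052, Tlr13 from -0.11 to 0.088, and at 4 weeks Tlr2 from -0.26 to 0.41, Cd14 from -0.31 to 0.36, Cd180 from -0.32 to 0.013, Tlr7 from -0.25 to 0.15, and at 9 weeks Ly86 from -0.13 to 0.21, and at 16 weeks Tlr2 from -0.18 to 0.24, Tlr13 from -0.15 to 0.028.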
